A study of Homo sapiens with 6 samples.

Results

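CARM1 and 7 related protein arginine methyltransferase genes (PRMT1, PRMT2, PRMT3, PRMT5, PRMT6, PRMT7 and PRMT9) were followed in K562 cells after knockdown (KD) of PCBP1. K562 is an established leukemia line with erythroid features, and PCBP1 binds poly(C) stretches of RNA and is also an iron chaperone of the cytosol. The members are the genes of these names in GENCODE release 44, and they held 142 of the 251612 transcripts matched to that annotation and 8 of 62252 genes. All cells received a lentiviral pLKO.1 hairpin and puromycin selection. The hairpin targeted Luciferase in shCtrl (3 libraries) and PCBP1 in shPCBP1 (3 libraries), and poly-A RNA was sequenced. The labels number the replicates without saying that they were separate cultures, so p-values measure the spread between these libraries, which may be technical.

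Arginine methyltransferases move methyl groups from S-adenosylmethionine (SAM) to arginine residues of histones, RNA-binding proteins and other proteins. Type I enzymes (PRMT1, PRMT2, PRMT3, CARM1 and PRMT6) make asymmetric dimethylarginine, type II enzymes (PRMT5 and PRMT9) make symmetric dimethylarginine, and the type III enzyme PRMT7 makes monomethylarginine only. PRMT1 carries most type I activity in mammalian cells. PRMT5 works in a complex with WDR77, and CARM1, also called PRMT4, is a transcriptional coactivator that also methylates splicing factors. CARM1 is known in a full-length form and in a shorter form that lacks exon 15, which carries the automethylation site of the enzyme. That exon was followed by RT-PCR in the study, which asked how PCBP1 and iron alter exon use.

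Depth ran from 67066747 to 140522444 estimated counts per library, and the shCtrl libraries included the deepest. PCBP1 itself went from a mean normalized count of 38925 (SD 1454) over the shCtrl libraries down to 7041 (SD 362) with the hairpin (n = 3 each, log2 fold change -2.47), and the groups did not overlap. All 9 K562 markers examined were detected. Their summed TPM, a length-scaled relative abundance, ran from 16502 to 20012 in shCtrl and from 19553 to 20529 in shPCBP1. Of the 9, 3 rose, 0 fell and 6 did not pass. Over all genes averaging 1000 or more normalized counts, 28.7% rose and 16.2% fell. TAL1, TFRC and HBG1 rose (log2 fold changes 0.19, 0.35 and 0.16), HBG1 not with transcript length offsets or without shPCBP1 replicate 1 (DESeq2 adjusted p 0.127 and 0.0536). GATA1 and NFE2 had log2 fold changes of -0.07 and -0.06 and did not pass. The 8 markers of other cell types summed to between 9.29 and 10.6 TPM in shCtrl and between 5.89 and 8.36 TPM in shPCBP1. COL1A1 fell by 0.31 on the log2 scale, a call lost without shCtrl replicate 2 or 3 or shPCBP1 replicate 1 or 2, and MS4A1 and KRT5 were at or near 0 TPM. Their part in the results was not tested.

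The sequence around 2 cassette exons is shown first because exon use is where CARM1 was followed by the study. A cassette exon is an exon that some transcripts include and others skip. The CARM1 exon is 69 bases long (23 codons), lies at chr19:10921375-10921443 on the plus strand of hg38 and is exon 15 of 16 in the coding transcript CARM1-201. A PRMT1 exon of 54 bases at chr19:49679872-49679925, plus strand, is given beside it. It is also coding, it is kept by PRMT1-202 and skipped by PRMT1-201, and the PRMT1 form that keeps it is known for a nuclear export signal. Each sequence runs 5′ to 3′ through 100 bases of intron, the exon and 30 bases of intron, with the exon in capitals.
CARM1, chr19:10921275-10921473: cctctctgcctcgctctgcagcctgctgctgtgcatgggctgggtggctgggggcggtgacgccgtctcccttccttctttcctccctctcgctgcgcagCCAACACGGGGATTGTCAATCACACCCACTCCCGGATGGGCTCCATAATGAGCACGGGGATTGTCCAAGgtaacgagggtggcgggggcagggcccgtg
PRMT1, chr19:49679772-49679955: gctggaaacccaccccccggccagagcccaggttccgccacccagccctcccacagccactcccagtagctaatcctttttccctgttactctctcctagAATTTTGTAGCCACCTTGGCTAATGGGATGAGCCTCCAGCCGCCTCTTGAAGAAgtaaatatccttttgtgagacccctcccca

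Both exons follow C-rich intron sequence. In the 50 bases before the exon, 42% of letters were C for CARM1 and 40% for PRMT1, against a median of 22% over 34049 tested cassette exons with at least that much intron. A C content at least as high was found before 6.90% of these exons for the CARM1 value and before 9.11% for the PRMT1 value. The letters CCC, counted with overlaps on the transcribed strand only, occurred 2 times before each of them, and 44.7% of all such windows held them at least once. Of 37 cassette exons of the members, 21 had CCC in the window before them (56.8%). Exons with the same start share a window, so the 37 windows are not all separate sequences. CARM1 exons that start at 10908550 and PRMT7 exons that start at 68351390, all with CCC, are counted repeatedly. The share over all exons was counted in the same way.

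By transcript estimates, CARM1 exon 15 was included less in every shPCBP1 library than in any shCtrl library. Inclusion is given as percent spliced in (PSI), here the TPM share of transcripts that join the flanking exons through exon 15 (CARM1-201, CARM1-203 and CARM1-204) among these and those that join them directly (CARM1-202 and CARM1-210). Reads over the exon itself were not counted. CARM1-201 (3295 bases) and CARM1-202 (2722 bases) also differ outside this exon of 69 bases, so the share does not rest on exon 15 alone. PSI was 39.9%, 36.9% and 37.9% in shCtrl replicates 1, 2 and 3. In shPCBP1 replicates 1, 2 and 3 it was 28.0%, 30.2% and 34.1%. The means were 38.3% ± 1.55 and 30.8% ± 3.09 (SD, n = 3), a difference of -7.47 points. An exact two-sided permutation test gave p = 0.1, the smallest that 3 against 3 libraries allow. The study chose this exon with RNA-seq that included this KD, so its value here is not independent evidence.

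The transcripts behind this share did not move alike. CARM1-201, the form of 608 codons with exon 15, had 19.6, 17.9 and 17.5 TPM in shCtrl and 13.4, 14.8 and 14.8 TPM in shPCBP1. The form of 585 codons without it, CARM1-202, had 29.0, 30.0 and 26.9 TPM in shCtrl and 29.4, 28.6 and 26.9 TPM in shPCBP1. The groups were apart for CARM1-201 and overlapped for CARM1-202. CARM1-210, a short noncoding model of 696 bases annotated as a retained-intron form, also skips exon 15. It had 0.835, 0.880 and 2.29 TPM in shCtrl and 5.43, 5.96 and 3.15 TPM in shPCBP1. It is named here after its values were seen, since it counts among the skipping forms. Whether its higher TPM stands for skipping of exon 15 was not tested. With protein-coding transcripts only, which leaves CARM1-210 out, the PSI difference was -5.11 points and the groups still did not overlap.

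**Figure D1:**
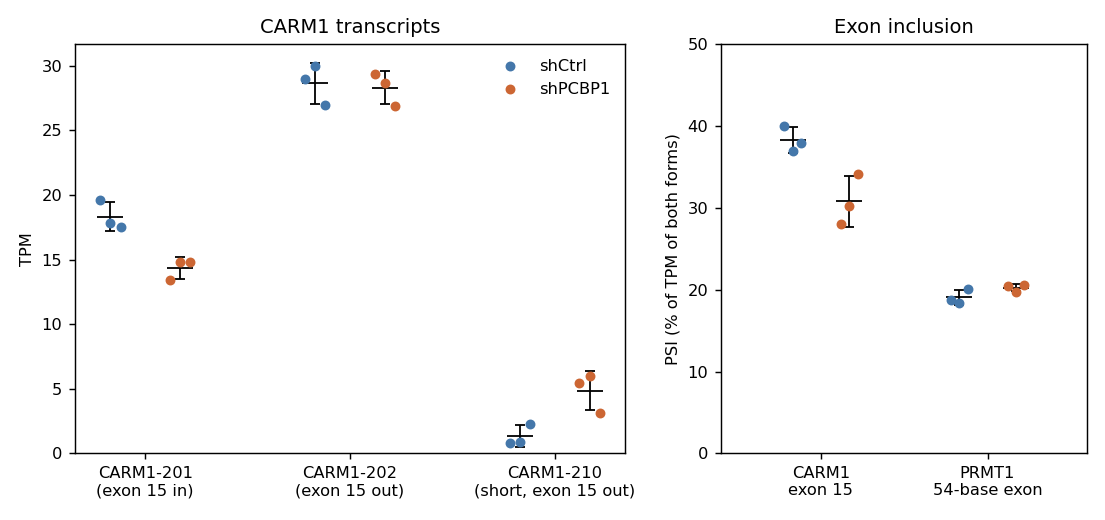
CARM1 transcripts and exon inclusion by library. The left panel plots TPM of CARM1-201, CARM1-202 and CARM1-210, and the right panel plots PSI in percent of CARM1 exon 15 and of the 54-base PRMT1 exon; points are libraries (3 in each group), and black marks are the mean and SD. CARM1-201 and CARM1 exon 15 lie lower in all shPCBP1 libraries, CARM1-202 overlaps between groups, and the PRMT1 exon stays between 18.4% and 20.6%.

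The PRMT1 exon showed no difference of that size. Its PSI was 18.7%, 18.4% and 20.1% in shCtrl and 20.4%, 19.8% and 20.6% in shPCBP1, and the groups overlapped. The log2 ratio of included to skipped TPM differed by 0.11 (SE 0.165, limma adjusted p 0.868), as against -0.48 (SE 0.196, limma adjusted p 0.505) for CARM1 exon 15. The difference between the 2 exons was not tested, nor was any link between C content and inclusion.

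Across the members, 43 cassette events (37 different exons) had enough counts to test, 23 of them in PRMT7, which has 55 annotated transcripts. None was called at a limma adjusted p under 0.05 with a PSI difference over 5 points, against 0.0345% of 37657 events over all genes. An unadjusted p under 0.05 was found for 7 of the 43. No share over all events was counted at that cut, so this count cannot be read as high or low. The lowest adjusted p of a member event was 0.14, for a PRMT7 event whose forms averaged 0.241 TPM together. PSI did not overlap between groups for 8 of the 42 events with a PSI in every library, and for 12.3% of events over all genes. An event that was not called cannot be read as unchanged, since few were called anywhere by this measure. The study used another measure, the splicing program rMATS on aligned reads. With it the study reported many changed exons after PCBP1 KD, and more skipping of the CARM1 exon.

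Among the events whose groups did not overlap and whose forms reached 5 TPM together, CARM1 exon 15 and a noncoding exon of PRMT2 had the widest PSI differences. A PRMT7 event had a wider mean difference, -8.07 points, but its groups overlapped. The PRMT2 exon, named after its values were seen, lies at chr21:46636439-46636547, plus strand, ahead of the start codon of PRMT2-203, the only transcript that keeps it. PSI of the PRMT2 exon was 17.4%, 21.8% and 18.6% in shCtrl and 24.0%, 29.7% and 27.0% in shPCBP1, so that all shPCBP1 libraries were higher. The log2 ratio differed by 0.62 (SE 0.216), with an unadjusted limma p of 0.0296 and an adjusted p of 0.444. Of the 50 bases before this exon, 18% were C, below the median of 22%.

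**Figure D2:**
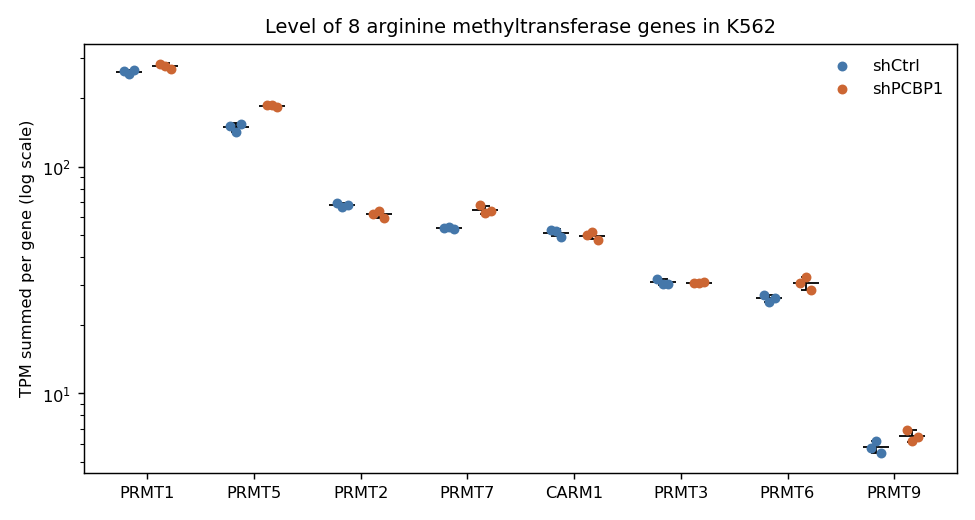
Level of each member in K562. The vertical axis is TPM summed per gene on a log scale, points are libraries (3 in each group), and black marks are the mean and SD; PRMT1 leads at 262 TPM in shCtrl and PRMT9 is lowest at 5.80 TPM.

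In level per length, PRMT1 led the family. Mean TPM in shCtrl was 262 ± 4.605 for PRMT1, 149 ± 6.69 for PRMT5, 67.6 ± 1.22 for PRMT2, 53.5 ± 0.469 for PRMT7, 51.1 ± 1.87 for CARM1, 30.99 ± 0.889 for PRMT3, 26.2 ± 0.946 for PRMT6 and 5.80 ± 0.357 for PRMT9 (SD, n = 3). PRMT7 and CARM1 were the closest neighbors, at 53.0 to 53.9 TPM and 49.0 to 52.3 TPM. In shPCBP1 the ranges of PRMT7 (62.1 to 67.5 TPM) and PRMT2 (59.4 to 63.7 TPM) overlapped, as did those of PRMT3 (30.6 to 30.9 TPM) and PRMT6 (28.5 to 32.5 TPM), so these pairs could not be ordered. PRMT8, a brain-enriched relative, was near the detection limit (mean normalized count 10.6) and had no adjusted p.

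The 8 members together came to 646 ± 11.7 TPM in shCtrl and 706 ± 15.03 TPM in shPCBP1 (SD, n = 3). Type I genes held 67.7% ± 0.391 of that total in shCtrl and 63.7% ± 0.454 in shPCBP1, type II genes 24.0% ± 0.587 and 27.2% ± 0.244, and PRMT7 8.27% ± 0.211 and 9.13% ± 0.341. None of these shares overlapped between groups. The shares describe transcript estimates, add up to a whole and were not tested. A lower share was not a lower level for type I genes. Their summed TPM was 438 ± 6.23 in shCtrl and 450 ± 11.7 in shPCBP1, and the groups overlapped. Type II genes summed to 155 ± 6.33 and 192 ± 2.40 TPM, without overlap. In bulk RNA, a change in the number of cells that express a gene and in RNA per cell cannot be told apart.

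**Figure D3:**
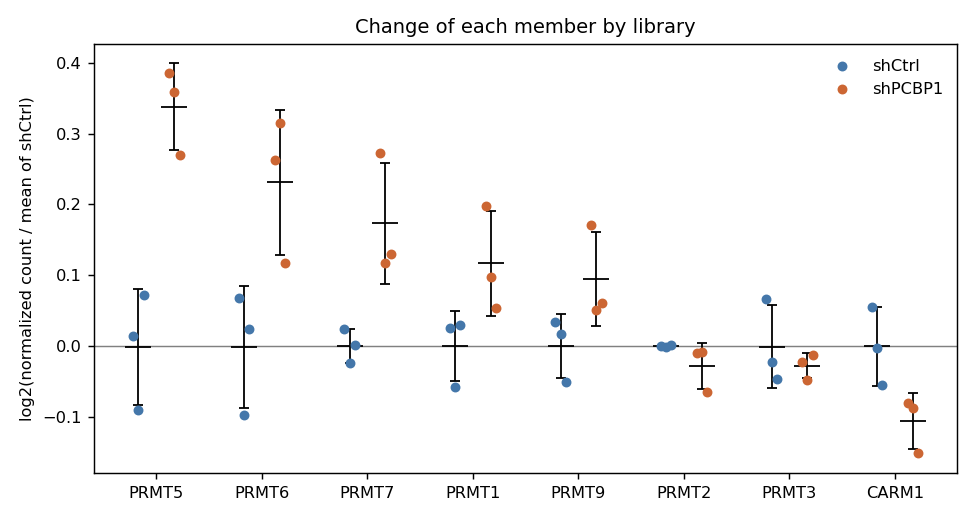
Change of each member by library. The vertical axis is the log2 ratio of a library's normalized count to the mean of the 3 shCtrl libraries. Points are libraries, and black marks are the mean and SD. PRMT5, PRMT6, PRMT7, PRMT1 and PRMT9 lie above 0 in all shPCBP1 libraries. CARM1, PRMT2 and PRMT3 lie below 0 in all of them, and for PRMT3 the groups overlap.

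Of the 8 members, 4 rose, 1 fell and 3 did not pass a DESeq2 adjusted p under 0.05. Over all genes, 31.2% of 17095 tested passed, 17.7% higher and 13.5% lower, and the share was 44.9% among the 9369 genes averaging 1000 or more normalized counts, as all members do. With the size threshold added (absolute log2 fold change over 1), 0 members were called, against 1.37% of all genes. Normalized counts did not overlap between groups for 7 of the 8 members, and for 44.2% of all genes. The latter share covers tested genes of any count and was not taken separately at the level of the members. Under transcript length offsets, and under the edgeR quasi-likelihood test, 3 members passed (PRMT5, PRMT6 and PRMT7), all higher.

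PRMT5 (chromosome 14, 22920525 to 22929408, minus strand), the main type II enzyme, changed most. Its normalized counts were 22749.9, 21157 and 23676 in shCtrl and 29441, 28885 and 27148 in shPCBP1. The lowest shPCBP1 library stood above the highest shCtrl library. The log2 fold change was 0.34 (SE 0.0453, DESeq2 adjusted p 3.2e-12), or 26.5% higher, and from 0.30 to 0.38 when each library was left out in turn. PRMT5-202, a transcript of 637 codons, held 79.4% ± 1.15 of the gene's TPM in shCtrl and 76.7% ± 2.04 in shPCBP1 (SD, n = 3, limma adjusted p 0.595). It averaged 119 TPM in shCtrl and 142 TPM in shPCBP1, so most of the rise in TPM lay in this form. PRMT5-AS1 overlaps PRMT5 on the other strand.

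PRMT6 (chromosome 1, 107056674 to 107067636, plus strand), which methylates arginine 2 of histone H3, is the member whose coding transcript has no introns. It had 5331, 4753 and 5169.8 normalized counts in shCtrl and 6099.5, 6323.5 and 5515 in shPCBP1. The groups did not overlap, with shPCBP1 replicate 3 the nearest to shCtrl. The log2 fold change was 0.23 (SE 0.0612, DESeq2 adjusted p 0.000905). PRMT6-201 held 99.2% of the gene's TPM in both groups.

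PRMT7 (chromosome 16, 68310951 to 68360852, plus strand) had 6712, 6491 and 6606 normalized counts in shCtrl and 7974, 7162 and 7228 in shPCBP1. All shPCBP1 libraries were higher, and replicate 1 stood apart from the other two. The log2 fold change was 0.18 (SE 0.0509, DESeq2 adjusted p 0.00314), and 0.29 with transcript length offsets, which correct for the mean length of the forms in use. In the transcript table PRMT7 was spread over many forms, of which PRMT7-203, PRMT7-206 and PRMT7-225 held at least 10% each. The coding form PRMT7-203 (642 codons) had 20.3% ± 3.85 of the gene's TPM in shCtrl and 17.1% ± 0.621 in shPCBP1. The short PRMT7-206, of 713 bases and with no defined coding sequence, had 15.2% ± 3.13 and 20.1% ± 3.997. Neither passed (limma adjusted p 0.628 and 0.529). PRMT7 overlaps ENSG00000259797 on the same strand and SMPD3 on the other, so its estimate is less certain.

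PRMT1 (chromosome 19, 49675786 to 49689029, plus strand) had 23245, 21933 and 23312 normalized counts in shCtrl and 26194, 24425 and 23697.5 in shPCBP1. The groups did not overlap, but shPCBP1 replicate 3 lay close to the highest shCtrl library. The log2 fold change was 0.12 (SE 0.043, DESeq2 adjusted p 0.0232). It did not pass under edgeR (adjusted p 0.102) or with transcript length offsets (DESeq2 adjusted p 0.126), nor without shCtrl replicate 2 (0.117), shPCBP1 replicate 1 (0.172) or shPCBP1 replicate 2 (0.0691). Its main forms kept their shares within 2 points. PRMT1-201 (353 codons) held 68.2% ± 0.749 in shCtrl and 67.4% ± 1.103 in shPCBP1, and PRMT1-202 (371 codons) held 16.8% ± 0.774 and 17.9% ± 0.472 (SD, n = 3).

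CARM1 (chromosome 19, 10871553 to 10923075, plus strand) had 11586, 11128 and 10728 normalized counts in shCtrl and 10542, 10494 and 10034 in shPCBP1. The lowest shCtrl library and the highest shPCBP1 library were close but did not overlap. The log2 fold change was -0.11 (SE 0.0436, DESeq2 adjusted p 0.0488). With transcript length offsets it was -0.02 (DESeq2 adjusted p 0.842), and it passed in 3 of the 12 alternative fits, TMM factors, the filter of 10 counts in 3 libraries and the fit without shCtrl replicate 3. Leaving out any of the other 5 libraries ended the call, with log2 fold changes from -0.13 to -0.08 over the 6 such fits and adjusted p values from 0.0162 to 0.235. In TPM, which corrects for length, CARM1 was 52.3, 52.1 and 49.0 in shCtrl and 50.1, 51.3 and 47.6 in shPCBP1, and the groups overlapped. The lower CARM1-201, of 3295 bases, and the higher CARM1-210, of 696 bases, are forms of different length. YIPF2 overlaps CARM1 on the other strand, as ENSG00000268677 does PRMT1, DSTNP1 does PRMT2 and TMEM184C does PRMT9.

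Patterns over the 6 libraries like that of CARM1 were found by Euclidean distance between log2 normalized counts, each gene centred on its mean. Among 14156 genes with a mean of at least 100, the nearest were DNA2 (distance 0.027), RSRC2 (0.0332) and TNNT1 (0.0373). DNA2, a nuclease and helicase of DNA replication, averaged 6261 (SD 206) in shCtrl and 5758 (SD 148) in shPCBP1 over 3 libraries each.

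PRMT2, PRMT3 and PRMT9 did not pass. PRMT2 (chromosome 21, 46635595 to 46665124, plus strand), a type I enzyme with an SH3 domain, had 6960.2, 6951 and 6964 normalized counts in shCtrl and 6911, 6918 and 6649.9 in shPCBP1. The shCtrl libraries nearly coincided, and all shPCBP1 libraries were slightly lower (log2 fold change -0.03, 95% interval -0.11 to 0.06, DESeq2 adjusted p 0.698). Per length the gap was wider, at 67.6 ± 1.22 and 61.6 ± 2.14 TPM, and with transcript length offsets the log2 fold change was -0.11 (DESeq2 adjusted p 0.163). The longer PRMT2-203 (2354 bases, 433 codons) held 10.6%, 12.7% and 10.6% of PRMT2 TPM in the shCtrl libraries and 16.1%, 17.8% and 16.2% in the shPCBP1 libraries, which were all higher. That difference of 5.40 points had an unadjusted limma p of 0.00993 and did not pass (adjusted p 0.252). PRMT2-204 (954 bases, 253 codons) had 28.6% ± 2.18 in shCtrl and 24.3% ± 1.61 in shPCBP1 (limma adjusted p 0.5). The retained-intron form PRMT2-211 had 24.3% ± 1.65 and 23.0% ± 1.85 (limma adjusted p 0.836).

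PRMT3 (chromosome 11, 20387558 to 20509338, plus strand), which methylates the ribosomal protein RPS2, had 5733, 5395 and 5305 normalized counts in shCtrl and 5393, 5299 and 5426 in shPCBP1. The groups overlapped, and the log2 fold change was -0.03 (95% interval -0.13 to 0.07). Its main transcript PRMT3-202 held 86.1% ± 0.519 of TPM in shCtrl and 88.0% ± 3.39 in shPCBP1 (limma adjusted p 0.701). PRMT9 (chromosome 4, 147637785 to 147684163, minus strand), which methylates the splicing factor SF3B2, had 1372, 1356 and 1293 normalized counts in shCtrl and 1509, 1389 and 1398 in shPCBP1. Every shPCBP1 library was higher, though the gap was small beside the spread (log2 fold change 0.10, 95% interval -0.06 to 0.26, DESeq2 adjusted p 0.412). The coding form PRMT9-201 held 60.7% ± 6.12 and 59.7% ± 5.18, and the nonsense-mediated decay form PRMT9-204 held 34.7% ± 5.84 and 30.7% ± 5.14 (limma adjusted p 0.96 and 0.764).

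**Figure D4:**
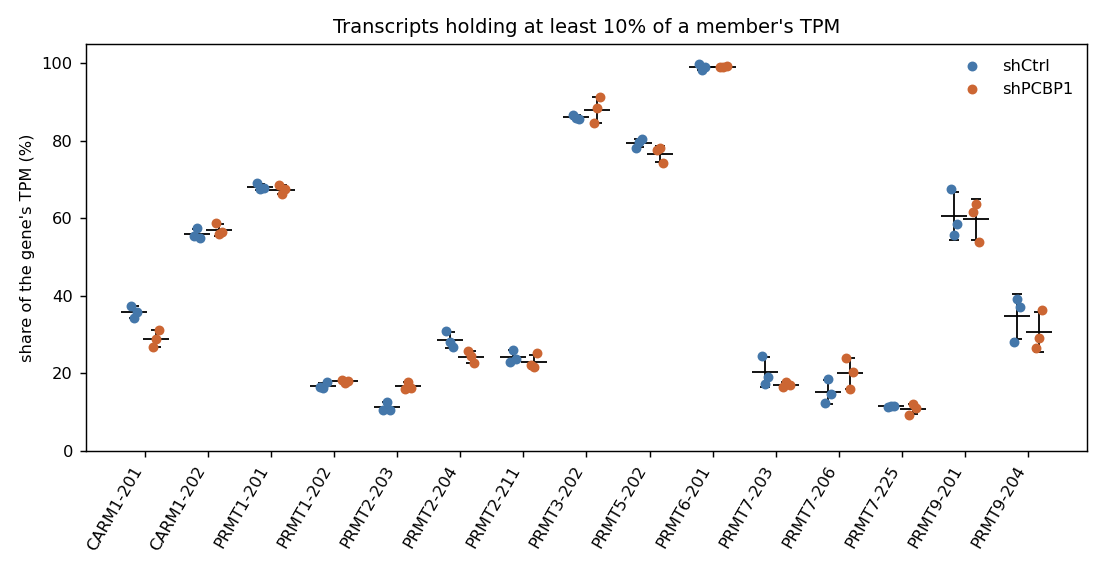
Transcripts that hold at least 10% of a member's TPM. The vertical axis is the share of the gene's TPM in percent, points are libraries (3 in each group), and black marks are the mean and SD; the groups are apart for CARM1-201, PRMT2-203 and PRMT2-204 and overlap for the others, and no share was called.

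Of 73 member transcripts tested for their share, 0 were called at a limma adjusted p under 0.05 and over 5 points, against 0.232% of 55506 transcripts over all genes. An unadjusted p under 0.05 was found for 11 of the 73. No share over all transcripts was counted at that cut, so this count cannot be read as high or low. Shares did not overlap between groups for 14 of the 73 and for 20.9% of all tested transcripts. The lowest adjusted p was 0.176, for PRMT7-218, a minor form named after its values were seen, with 2.05% of PRMT7 TPM in shCtrl and 0.239% in shPCBP1. CARM1-201 held 35.8% ± 1.61 of CARM1 TPM in shCtrl and 29.0% ± 2.20 in shPCBP1 (limma adjusted p 0.375), and CARM1-202 held 56.0% ± 1.39 and 57.1% ± 1.497 (limma adjusted p 0.898).

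Genes that work with the methyltransferases were read from the same fit. Of 79 genes in the pathway lists, 74 were tested, 31 rose, 7 fell and 36 did not pass, and 0 passed the size threshold. The share that passed was 51.4%, against 31.2% of all genes tested and 44.9% of those averaging 1000 or more normalized counts, a level that 72 of the 74 reached. By direction, 41.9% of the list genes were higher and 9.46% lower, against 28.7% and 16.2% of genes at that level. Their median log2 fold change was 0.08, against 0.00 over all genes tested and 0.11 over the 8 members.

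Partners of PRMT5 moved in both directions. Of 4 genes, WDR77 and RIOK1 rose, CLNS1A fell and COPRS did not pass (log2 fold change 0.07). Over all genes averaging 1000 or more counts, 28.7% rose and 16.2% fell. CLNS1A, the adaptor that brings Sm proteins of the spliceosome to PRMT5, had 13919, 13674.5 and 13837 normalized counts in shCtrl and 11527, 12151 and 11347 in shPCBP1. All shPCBP1 libraries were lower, and the log2 fold change was -0.24 (SE 0.0398, DESeq2 adjusted p 2.37e-08). RIOK1, an adaptor that competes with CLNS1A for PRMT5, had 6289, 5763 and 6118 in shCtrl and 7166.5, 7302 and 6319 in shPCBP1, and its log2 fold change was 0.19 (SE 0.0588, DESeq2 adjusted p 0.00487). It did not pass without shPCBP1 replicate 1 (0.0521) or 2 (0.0899). WDR77, the constant partner of PRMT5, was higher by 0.19 on the log2 scale (SE 0.0636, DESeq2 adjusted p 0.0139), and its groups overlapped. That call was lost under edgeR (adjusted p 0.0781), with transcript length offsets (0.356), with no filter on low counts (0.324) and without shCtrl replicate 2 or 3 or shPCBP1 replicate 1 or 2.

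Cofactors of CARM1 and PRMT1 that passed were all higher, 7 of 11, with a list median of 0.19, where 28.7% of all genes averaging 1000 or more counts were higher. CREBBP and EP300, acetyltransferases that act with CARM1 at promoters, had log2 fold changes of 0.36 (SE 0.0607) and 0.33 (SE 0.045). NCOA2, a coactivator that binds CARM1, had 0.25 (SE 0.0645). With transcript length offsets the log2 fold changes of EP300 and NCOA2 were 0.56 and 0.39. EP300 rose from 7771, 7243 and 7867 normalized counts in shCtrl to 9711, 9500.1 and 9638 in shPCBP1, and in these counts the groups were well apart. The CARM1 cofactor NCOA3 did not pass (log2 fold change 0.10, DESeq2 adjusted p 0.142).

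In a list of the methionine cycle, which makes SAM, and of the folate, polyamine and adenosine genes around it, 3 of 14 rose, 4 fell and 7 did not pass. Over all genes averaging 1000 or more counts, 28.7% rose and 16.2% fell. Of the 3 that rose, AMD1 and SRM belong to polyamine synthesis (log2 fold changes 0.18 and 0.22). SHMT2, the mitochondrial enzyme that draws one-carbon units from serine, fell from 16494, 16823 and 15475 normalized counts in shCtrl to 10596, 10666 and 10721.5 in shPCBP1 (log2 fold change -0.61, SE 0.0415). MTRR, which keeps methionine synthase active, rose by 0.41 on the log2 scale (SE 0.0413), and by 0.27 with transcript length offsets. The SAM synthetase gene MAT2A did not pass (log2 fold change 0.03, DESeq2 adjusted p 0.699). MTAP, whose locus is known to be deleted in K562, averaged 0.246 TPM in shCtrl and 0.235 TPM in shPCBP1.

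Among other enzymes of the family and among readers few genes passed, where 44.9% of all genes averaging 1000 or more counts did. Neither NDUFAF7 (log2 fold change -0.15) nor METTL23 (0.01) passed, out of 3 listed. SND1, a Tudor protein that binds symmetric dimethylarginine, was the only one of 7 readers that passed (log2 fold change 0.12, SE 0.032). SMN1 and SMN2, whose sequences are nearly the same, have uncertain estimates, since reads may be divided between them. Of 5 genes listed here as arginine methylation antagonists, 2 were tested, and DDAH2 fell by 0.38 on the log2 scale (SE 0.074). What its fall means for methylation of proteins was not tested. DDAH2 shares its strand with the overlapping gene CLIC1, which makes its value uncertain, and JMJD6 did not pass (log2 fold change 0.00).

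Of 11 tested genes of known CARM1 substrates, 7 rose and 1 fell, with CREBBP and EP300, described above as cofactors, among the 7. Over all genes averaging 1000 or more counts, 28.7% rose and 16.2% fell. MED12, the substrate gene that fell, encodes a subunit of the Mediator kinase module. It had 8937, 8507 and 8720.5 normalized counts in shCtrl and 5986, 5512 and 5669 in shPCBP1, and in these counts the groups were far apart (log2 fold change -0.61, SE 0.0475, DESeq2 adjusted p 5.41e-35). With transcript length offsets MED12 had a log2 fold change of -0.29 (DESeq2 adjusted p 0.00358), and in TPM its groups nearly met, at 20.96 to 23.7 in shCtrl and 16.4 to 20.4 in shPCBP1. SF3B4, of the U2 small nuclear ribonucleoprotein, rose by 0.40 (SE 0.0593), and the histone methyltransferase KMT2D rose by 0.39 (SE 0.0368), or by 0.21 with transcript length offsets.

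Among PRMT1 substrates, mostly RNA-binding proteins with arginine and glycine repeats, 9 of 17 genes rose and none fell, where 28.7% of all genes averaging 1000 or more counts rose and 16.2% fell. G3BP1, a core protein of stress granules, led with a log2 fold change of 0.42 (SE 0.037), followed by RBM15 with 0.32 (SE 0.0586) and the nucleolar protein NCL with 0.23 (SE 0.0451). HNRNPA1 and FBL did not pass (log2 fold changes -0.04 and -0.02). Of 9 substrate genes of PRMT5, PRMT3 and PRMT9, 4 rose and none fell. These were E2F1 (log2 fold change 0.45, SE 0.0601), SUPT5H (0.25, SE 0.0419), SF3B2 (0.13, SE 0.0321) and RPS2 (0.08). RPS2 passed in 3 of the 12 alternative fits, the filter of 10 counts in 3 libraries and those without shCtrl replicate 3 or shPCBP1 replicate 3. The Sm genes SNRPD1, SNRPD3 and SNRPB did not pass, with log2 fold changes of 0.01, 0.10 and 0.06.

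**Figure D5:**
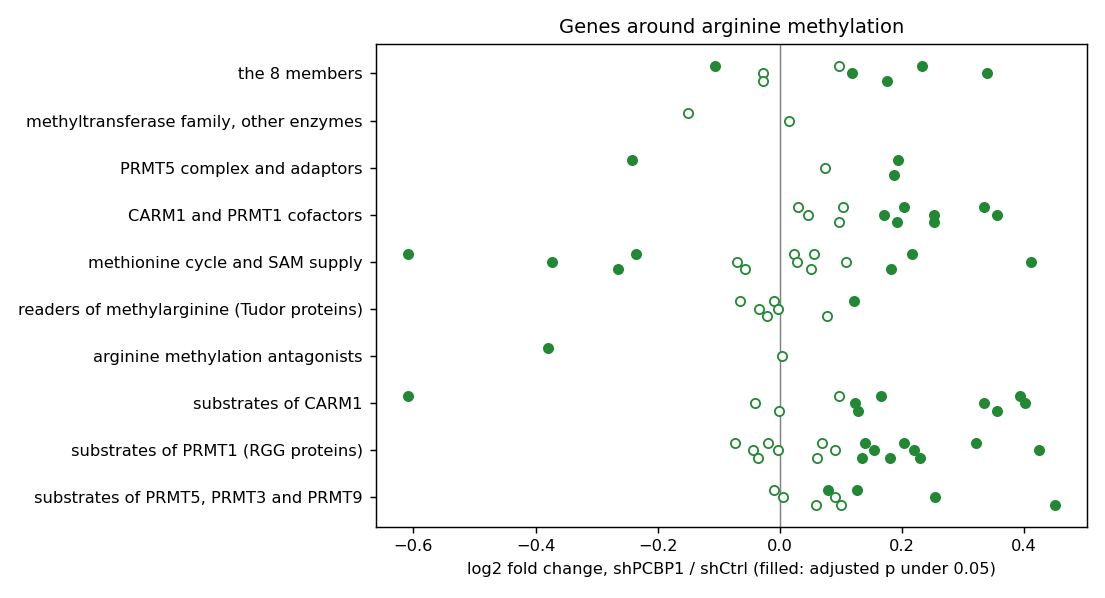
Log2 fold change (shPCBP1 against shCtrl) of the 8 members and of genes around arginine methylation. Each point is a gene, rows are gene lists, and filled points have a DESeq2 adjusted p under 0.05; cofactors and substrates lie mostly to the right of 0, and SHMT2 and MED12, at -0.61 each, are the lowest.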

How the data were processed

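Per the labels, the authors ran Salmon 1.10.2 with build hg38 to estimate transcript abundance. The deposited files give estimated counts without normalization, and TPM as deposited corrects these for effective transcript length. The annotation behind the index and the strand setting were not given in the sources used here. Transcripts outside GENCODE release 44 held 0.136% to 0.147% of counts and were left out. Counts were summed per gene, rounded and, where the sum over libraries reached 10, tested with DESeq2 1.42.0 (Wald test, two-sided, group only, Benjamini-Hochberg over all genes). Transcript shares and cassette exons were tested with limma 3.58.1 (trend) on log2 TPM ratios with a pseudocount of 0.1 TPM. Shares needed a gene mean of at least 1 TPM and 0.5 TPM for the transcript and for the remainder, exons an average estimated count of at least 10 for either form. Scripts were tested on simulated data. Members and lists were chosen with earlier results of these data known. Genes named from lists were the up to 3 largest changes with an adjusted p under 0.05, 100 or more normalized counts on average and groups that did not overlap, and others are named for their role, with their values known. Transcripts with at least 10% of a member's TPM were named. Some list genes are not reported here by name. Pairwise chi-square per degree of freedom within groups was 6.48 to 16.4, so libraries were counted separately. Alternatives were edgeR 4.0.16, TMM factors, length offsets, filters, pseudocounts, transcript types, a replicate block and leaving out each library. Other software was R 4.3.3.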

Additional observations from a re-analysis of the deposited data

How the results depend on the processing

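PCBP1 was lower and passed in each of the 12 alternative gene fits. The count of 5 members that passed became 3 under the edgeR quasi-likelihood test and 3 with transcript length offsets, and from 3 to 5 when each library was left out in turn, with 3 without shCtrl replicate 2, shPCBP1 replicate 1 or shPCBP1 replicate 2. The cause was not tested. PRMT5, PRMT6 and PRMT7 passed under every alternative run. The log2 fold change of PRMT3 reversed to 0.0108 with transcript length offsets and ran from -0.0499 to 0.00678 with a library left out, reversed without shCtrl replicate 1, and it passed in none of these fits. The log2 share ratio of PRMT9-201 reversed to 0.154 with estimated counts in place of TPM and ran from -0.196 to 0.149 with a library left out, reversed without shCtrl replicate 1 or shPCBP1 replicate 3. That of PRMT7-203 reversed to 0.0496 and that of PRMT7-225 to 0.212 with protein-coding transcripts only, and PRMT7-225 to 0.0345 with estimated counts. The 38 pathway genes that passed became 34 to 40. Calls of member transcripts and exons were 0 under all alternatives run, while over all genes the 129 called transcripts became 215 with a pseudocount of 1 TPM, 84 without the filter and 0 with the replicate block, and the 13 called exons became 30 when 0.01 TPM was added, 120 when 1 TPM was added, 7 when each form needed 10 counts, 0 with the block and 0 or 1 with a library left out. The CARM1 PSI difference ran from -9.14 to -6.08 points over the fits that each left out a library.

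Residuals of libraries with the same replicate number correlated at 0.094, -0.02 and -0.105, so the numbers were not taken to pair libraries. With the replicate block, 4 members passed and CARM1 did not (DESeq2 adjusted p 0.067), and the sign-flip test of the CARM1 PSI difference of -7.47 gave an exact p of 0.25, the smallest 3 pairs allow. TMM factors moved the median log2 fold change of all genes by -0.01. Depth limits the forms at the lowest TPM.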
